A study of Mus musculus with 15 samples.

Results

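Epithelial junction and keratin genes are the genes whose products join neighbouring cells and anchor their cytoskeleton, together with some of the regulators, trafficking proteins and membrane proteases that epithelia use. The 35 genes described here are 2 adhesion genes, 9 tight junction membrane genes, 5 tight junction plaque and polarity genes, 6 desmosome genes, 4 keratins, 3 regulators, 2 trafficking genes and 4 genes of a membrane protease system. They were listed by name, with earlier results of these data known, and all 35 were measured among 18193 genes, each by its brightest probe set over 15 arrays. E-cadherin joins neighbouring epithelial cells at adherens junctions, claudins and occludin seal the space between them at tight junctions, and desmosomes tie the keratin filaments of adjacent cells together. Mouse embryonic stem cells grow as tight colonies that hold E-cadherin, whereas fibroblasts grow as separate mesenchymal cells, and the passage of fibroblasts through a mesenchymal-to-epithelial transition is a known early step of reprogramming.

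Total RNA was hybridised to Affymetrix mouse arrays for 3 lines of induced pluripotent stem (iPS) cells, for embryonic stem (ES) cells and for mouse embryonic fibroblasts (MEF), with 3 arrays in each of the 5 groups. Per the labels, the iPS lines IP20D-3 and IP14D-1, the ES line CL11 and the MEF share the B6D2F1 background, and the iPS line IP14D-101 has the background C57x129S2, so that line and background cannot be told apart in IP14D-101. The labels name the MEF as the fibroblasts from which iPS cells were made, and the MEF group has the background of 2 of the 3 iPS lines. Each iPS group is 1 line and the ES group is 1 line, the ES and iPS cells had grown with LIF on MEF feeders treated with mitomycin C, and the labels do not say whether a line had serum or a serum replacement. The design text describes the samples as biological replicates; p-values here cover only the spread among the 3 samples in each group, and the number of arrays limits the precision.

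Levels are log2(signal + 16) of the deposited intensities after each array had been scaled to a common trimmed mean, and they are compared within a gene and never between genes. Background was a log2 signal of 11.04, the 95th percentile of 39 olfactory receptor genes, which these cells are not known to use. The labelled cell types matched their markers: summed signal over 8 pluripotent cell markers was 3025750 to 3351500 in IP20D-3, 3491530 to 3742480 in IP14D-101, 2842010 to 3032840 in IP14D-1 and 3186520 to 3407710 in CL11, against 5029 to 7712 in MEF. Over 9 fibroblast and feeder markers the sums were 11826 to 16551 in IP20D-3, 10973 to 12576 in IP14D-101, 33676 to 36363 in IP14D-1 and 10349 to 12294 in CL11, against 4967160 to 5500870 in MEF. IP14D-1 thus stood apart from the other lines in these markers, with 6 of 9 above background on each of its arrays, against 1 to 3 of 9 in the other lines. Of 6 keratinocyte markers, 1 to 3 were above background on any array of any group. A difference in a bulk sample can come from fewer cells of a type or from less RNA per cell, which cannot be told apart here.

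To ask how the junction programme of the pluripotent lines differed from that of fibroblasts, each line was compared with MEF. Nearly all members were higher in the lines: 32 of 35 in IP20D-3, 30 in IP14D-101, 32 in IP14D-1 and 30 in CL11 (limma, Benjamini-Hochberg adjusted p under 0.05 over all genes). Among all 18193 genes, 30.4%, 30.4%, 29.9% and 30.3% were called higher in the same comparisons, in the order IP20D-3, IP14D-101, IP14D-1 and CL11. Lower calls were 1 of 35 members in IP20D-3, 2 in IP14D-101, 0 in IP14D-1 and 1 in CL11, beside 23.7%, 24.7%, 22.9% and 23.8% of all genes. The median member differed from MEF by a log2 of 4.44 in IP20D-3, 4.23 in IP14D-101, 4.55 in IP14D-1 and 3.97 in CL11, against medians of 0.10, 0.05, 0.13 and 0.07 over all genes. These 4 comparisons share the MEF arrays, so the counts are not independent of one another.

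Most members were under background in fibroblasts. In MEF the mean of 25 of 35 members lay below background, and 18 of them were below it on all 3 arrays. Where the mean of the dimmer group was below background, a fold is given as at least the ratio of the brighter group to the dimmer one with each array below background raised to it. With such genes at their bound, the median member was higher than MEF by a log2 of 3.05 in IP20D-3, 2.36 in IP14D-101, 3.0 in IP14D-1 and 2.60 in CL11. The 10 members with an MEF mean above background were Tjp1, Pkp2, Jup, Krt8, Krt18, Krt19, Grhl2, F11r, Crb3 and Spint2. In the lines, a mean below background was found only for Krt19 in IP14D-101 and for Rab25 in CL11. The median standard deviation of a member was 0.54 in MEF and 0.12, 0.14, 0.10 and 0.12 in IP20D-3, IP14D-101, IP14D-1 and CL11, and the highest was 2.53, for Ocln in MEF.

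**Figure D1:**
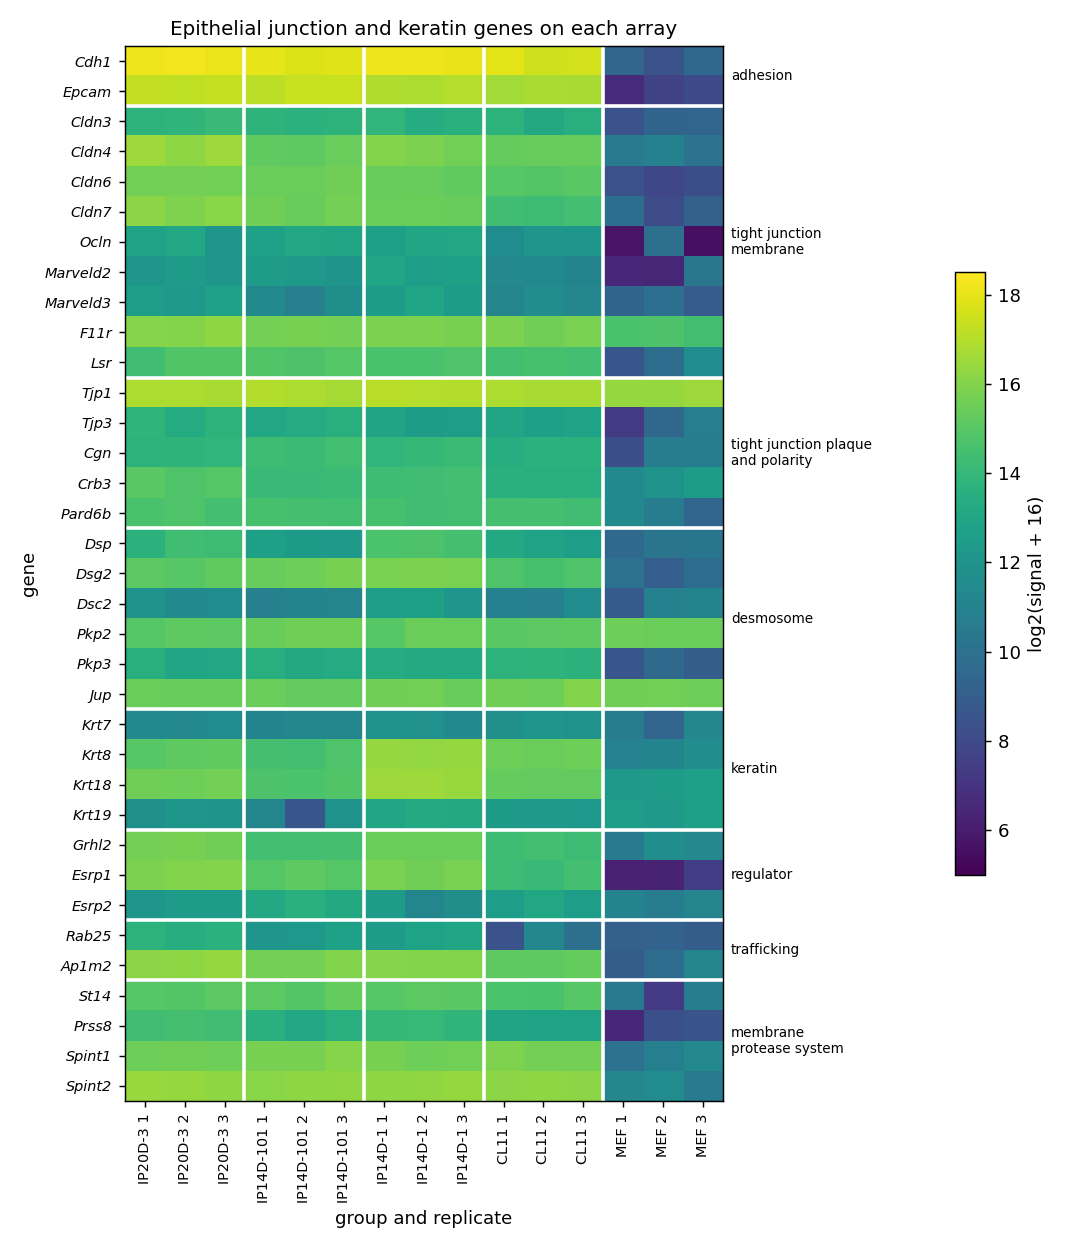
Log2(signal + 16) of the 35 members on each of the 15 arrays, with genes in rows grouped by role and arrays in columns grouped as IP20D-3, IP14D-101, IP14D-1, CL11 and MEF. Most rows are dark on the 3 MEF arrays and light on the 12 arrays of the lines, while Tjp1, Pkp2 and Jup are light on all 15, and single dark cells stand out for Krt19 in IP14D-101 replicate 2 and Rab25 in CL11 replicate 1.

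The adhesion genes were among the members furthest from MEF. Cdh1 encodes E-cadherin, and its log2 signal was 18.17, 18.24 and 18.09 in IP20D-3, 17.98, 17.78 and 17.83 in IP14D-101 and 18.15, 18.17 and 18.05 in IP14D-1, against 17.94, 17.53 and 17.58 in CL11 and 9.44, 8.44 and 9.51 in MEF. All 12 arrays of the lines were far above the 3 MEF arrays, which lay below background. The fold over MEF was at least 140-fold in IP20D-3, 113-fold in IP14D-101, 136-fold in IP14D-1 and 100-fold in CL11 (limma adjusted p of 3.56e-17 or less). Epcam encodes a cell surface adhesion molecule of epithelia and pluripotent cells that binds claudin-7. Its log2 signal was 17.27, 17.19 and 17.32 in IP20D-3, 17.18, 17.37 and 17.36 in IP14D-101 and 16.91, 16.84 and 17.00 in IP14D-1, against 16.62, 16.79 and 16.73 in CL11 and 6.62, 7.60 and 8.04 in MEF. No array of a line came near MEF, and the fold was at least 74.5-fold in IP20D-3, 77-fold in IP14D-101, 58.9-fold in IP14D-1 and 51.2-fold in CL11 (limma adjusted p of 6.5e-17 or less). The other Epcam probe set, above background in MEF, differed from MEF by a log2 of only 0.64 in CL11 to 1.21 in IP14D-1.

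In the tight junction, all 9 membrane genes and all 5 plaque and polarity genes were higher than MEF in every line. Of the claudins, which form the sealing strands, Cldn6 differed from MEF by a log2 of 7.47 in IP20D-3, 7.30 in IP14D-101, 7.13 in IP14D-1 and 6.80 in CL11 (standard error 0.12), at least 24.4-fold in IP20D-3, 21.6-fold in IP14D-101, 19.3-fold in IP14D-1 and 15.3-fold in CL11. Cldn4 and Cldn7 were at least 18.9-fold and 9.95-fold higher in every line, and Cldn3 at least 5.33-fold. Occludin (Ocln), tricellulin (Marveld2) and Marveld3, which share a membrane domain, had bounds over MEF that in no line fell under 1.84-fold for Ocln, 1.2-fold for Marveld2 and 1.22-fold for Marveld3. F11r, the junctional adhesion molecule A, was well above background in MEF, and its fold was 2.81-fold in IP20D-3, 2.2-fold in IP14D-101, 2.34-fold in IP14D-1 and 2.24-fold in CL11. Lsr, which brings tricellulin to tricellular contacts, was at least 9.62-fold higher in every line. With the mean of all probe sets in place of the brightest one, Marveld3 had no call in any line (log2 differences of 0.92 in IP20D-3, 0.37 in IP14D-101, 0.94 in IP14D-1 and 0.30 in CL11, adjusted p of 0.134 or more), and F11r had none in IP20D-3, IP14D-101 and CL11 (0.64, 0.30 and 0.60, adjusted p = 0.0762, 0.423 and 0.0972). The other probe sets of Marveld3 and F11r, which enter that mean, had no group with a mean above background.

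Of the plaque genes, Tjp1 encodes the scaffold ZO-1 and was bright in all groups, with a log2 difference from MEF of 0.40 in IP20D-3, 0.40 in IP14D-101, 0.58 in IP14D-1 and 0.37 in CL11 (standard error 0.08). This difference did not keep its direction without scaling, where the value was -0.24 in IP20D-3, -0.17 in IP14D-101 and -0.051 in CL11. The all-gene medians without scaling were lower still, at -0.52, -0.51 and -0.34 in the same order. Tjp3 and Cgn, the plaque proteins ZO-3 and cingulin, were at least 2.96-fold and 5.78-fold higher in every line. Crb3 belongs to the apical Crumbs complex and Pard6b to the Par polarity complex. Crb3 exceeded MEF 7.84-fold in IP20D-3, 4.52-fold in IP14D-101, 5.33-fold in IP14D-1 and 2.94-fold in CL11, and Pard6b was at least 9.74-fold higher in every line.

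The desmosome was mixed. Dsg2, the desmosomal cadherin desmoglein-2, exceeded MEF at least 16.6-fold in IP20D-3, 22.7-fold in IP14D-101, 26.9-fold in IP14D-1 and 12.9-fold in CL11. Dsp, which links the desmosome to keratin filaments, exceeded MEF at least 8.28-fold in IP20D-3, 2.64-fold in IP14D-101, 12.3-fold in IP14D-1 and 3.47-fold in CL11. Pkp3, a plakophilin of the plaque, exceeded it at least 4.36-fold in IP20D-3, 4.8-fold in IP14D-101, 4.8-fold in IP14D-1 and 6.37-fold in CL11. Dsc2, desmocollin-2, was called higher in IP20D-3 (at least 1.49-fold, fitted log2 difference 1.36, limma adjusted p = 0.0221) and IP14D-1 (at least 2.55-fold, 2.13, 0.000866) but not in IP14D-101 (0.78, 0.189) or CL11 (0.83, 0.165). The IP20D-3 call was lost without MEF replicate 1 (0.62, adjusted p = 0.162) or IP20D-3 replicate 1 (1.24, adjusted p = 0.0711). Plakophilin-2 (Pkp2) and plakoglobin (Jup), which fibroblasts also make, were as bright in MEF as in the lines. Pkp2 differed from MEF by -0.41 in IP20D-3, 0.04 in IP14D-101, -0.17 in IP14D-1 and -0.39 in CL11 (standard error 0.11), called lower in IP20D-3 and CL11, and Jup by -0.17 in IP20D-3, -0.26 in IP14D-101, -0.04 in IP14D-1 and 0.11 in CL11 (standard error 0.10), called lower in IP14D-101. With arrays scaled to equal medians, where the all-gene median was 0.20 in IP20D-3, 0.39 in IP14D-101 and 0.29 in CL11, 0 members were lower than MEF in IP20D-3 and CL11 and the Jup value in IP14D-101 was 0.088. The Jup call was also lost without any 1 of MEF replicates 1 and 2 and IP14D-101 replicates 2 and 3 (adjusted p of 0.0696 to 0.101).

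Keratins split likewise. Krt8 and Krt18 encode the partner keratins of simple epithelia, and their genes are neighbours on chromosome 15. Krt8 exceeded MEF 14.9-fold in IP20D-3, 10.3-fold in IP14D-101, 35.4-fold in IP14D-1 and 19.3-fold in CL11. Krt18 exceeded it 8.94-fold in IP20D-3, 4.94-fold in IP14D-101, 16.5-fold in IP14D-1 and 7.16-fold in CL11. In MEF 2 of 3 arrays for Krt8 and all 3 for Krt18 were above background, with a log2 signal of 10.96, 11.08 and 11.60 for Krt8 and 12.26, 12.41 and 12.64 for Krt18. Krt7, another keratin of simple epithelia, was called higher in IP20D-3 (at least 1.26-fold, fitted log2 difference 1.01, limma adjusted p = 0.0384), IP14D-1 (at least 1.54-fold, 1.30, 0.00941) and CL11 (at least 1.77-fold, 1.5, 0.00332), with no call in IP14D-101 (0.74, 0.128). Without MEF replicate 2 the Krt7 difference was 0.50 in IP20D-3 (adjusted p = 0.252) and 0.79 in IP14D-1 (adjusted p = 0.066), and without IP20D-3 replicates 1, 2 or 3 in turn the adjusted p was 0.0767, 0.0593 and 0.092. Krt19, a keratin without a tail domain, was as bright in MEF (12.55, 12.27 and 12.67) as in most lines, and it was called lower among the lines in IP14D-101, by at least 2.18-fold (limma adjusted p = 0.00401). That bound rests on IP14D-101 replicate 2, the lowest array: the fitted log2 difference from MEF was -1.93 with it and -0.95 without it (adjusted p = 0.00406).

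The 3 regulators, the 4 protease system genes and Ap1m2 were called higher in every line, and Rab25 in the iPS lines, though the Esrp2 calls depended on the setting. Grhl2, a Grainyhead-like transcription factor of epithelia, exceeded MEF 22.3-fold in IP20D-3, 9.93-fold in IP14D-101, 19.5-fold in IP14D-1 and 9.01-fold in CL11. Esrp1 encodes a splicing regulator that sets epithelial exons, and it exceeded MEF at least 29.3-fold in IP20D-3, 15.7-fold in IP14D-101, 25.8-fold in IP14D-1 and 9.33-fold in CL11. Its paralogue Esrp2 exceeded MEF at least 2.38-fold in IP20D-3, 4.68-fold in IP14D-101, 1.61-fold in IP14D-1 and 3.1-fold in CL11, and the call in IP14D-1 (log2 difference 0.79) was lost without MEF replicate 2 (0.67, adjusted p = 0.0939) or IP14D-1 replicate 1 (0.46, adjusted p = 0.202). By the mean of all its probe sets Esrp2 was 0.50 in IP20D-3, 0.074 in IP14D-1 and 0.97 in CL11 (adjusted p = 0.334, 0.908 and 0.0531), with no call, and without scaling the calls in IP20D-3 and IP14D-1 were lost too (0.0587 and 0.071). Ap1m2, a clathrin adaptor subunit of basolateral sorting in epithelia, exceeded MEF at least 35.5-fold in IP20D-3, 25.7-fold in IP14D-101, 31-fold in IP14D-1 and 17.2-fold in CL11. The membrane protease matriptase (St14), its partner prostasin (Prss8) and the Kunitz inhibitors of matriptase, Spint1 and Spint2, were all called higher in every line. Spint2, above background in MEF, exceeded it 37.3-fold in IP20D-3, 34.5-fold in IP14D-101, 36.1-fold in IP14D-1 and 34-fold in CL11, and the bounds were at least 13.2-fold for St14, 3.49-fold for Prss8 and 21.1-fold for Spint1 in every line. Rab25, a small GTPase of apical recycling, was at least 5.8-fold higher in IP20D-3, 2.46-fold in IP14D-101 and 3.26-fold in IP14D-1, and in CL11 and MEF its mean lay below background.

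**Figure D2:**
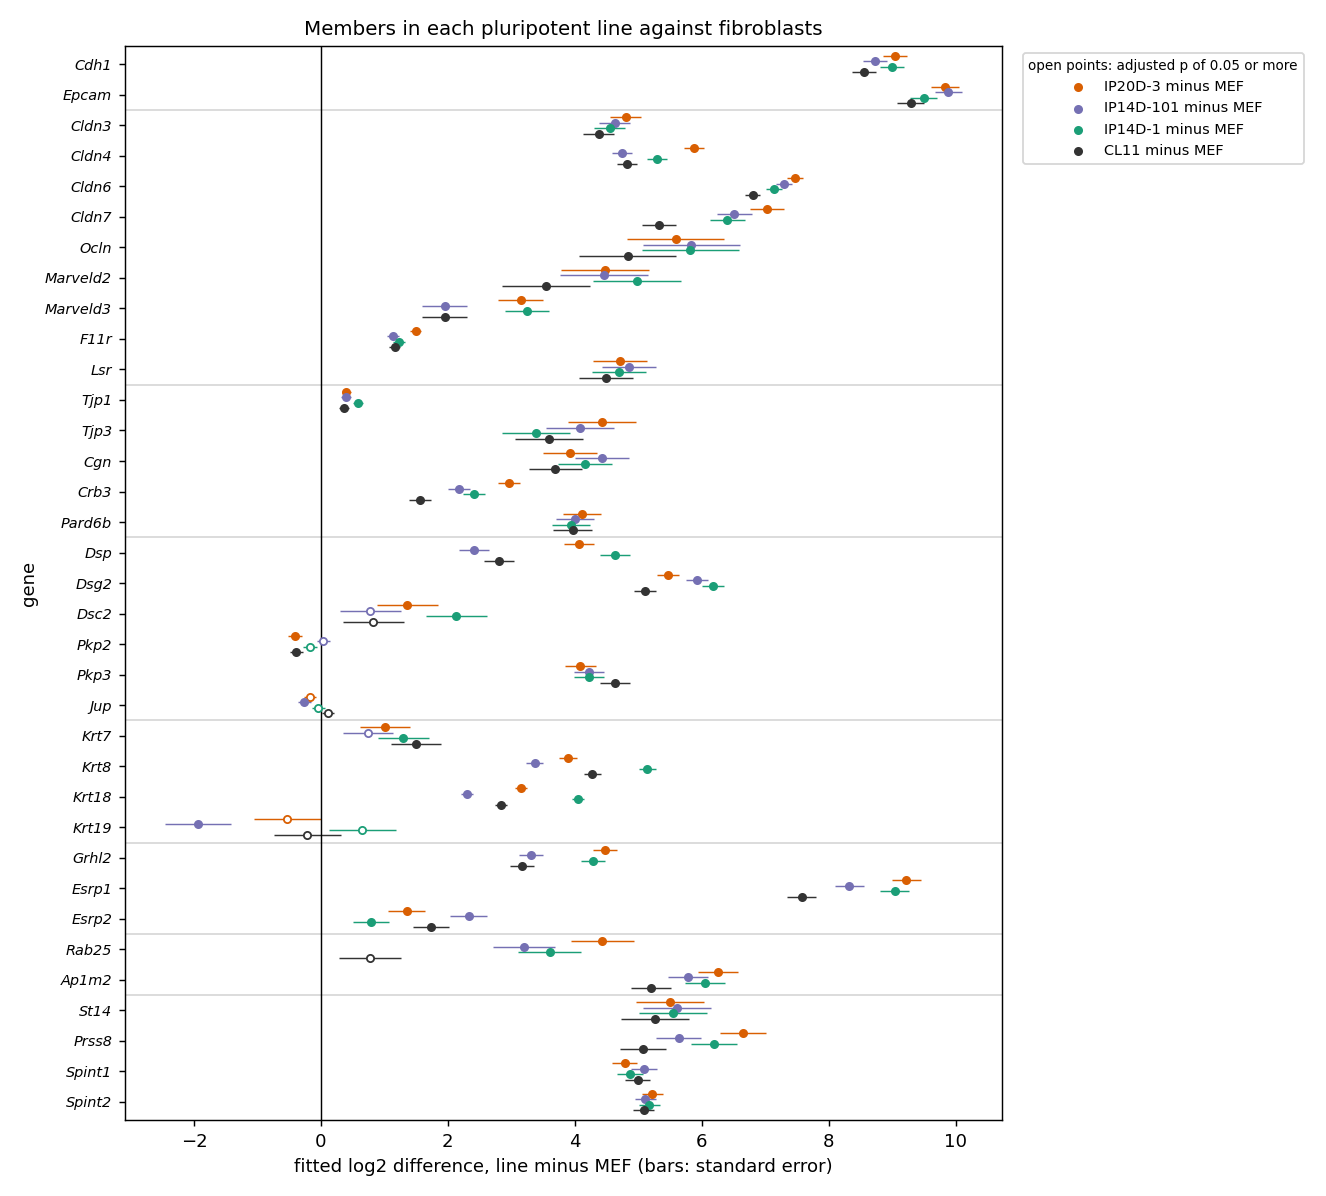
Fitted log2 difference from MEF of each member in IP20D-3, IP14D-101, IP14D-1 and CL11, with standard errors as bars and open points where the adjusted p was 0.05 or more. Epcam, Esrp1 and Cdh1 lie furthest to the right, Epcam and Cdh1 at 9.29 to 9.88 and 8.55 to 9.04 and Esrp1 at 7.57 to 9.22, Pkp2 and Jup lie near 0, and Krt19 in IP14D-101, whose mean lies below background, is furthest to the left at -1.93, or -0.95 without its replicate 2. For the 25 members with an MEF mean below background the plotted values are fitted values and not bounds.

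A gene's other probe sets mostly ran in the same direction, but sizes differed. Of 26 further probe sets, from 14 members, with a group above background, 23 had the sign of the brightest one in all 4 lines. The exceptions were 2 probe sets of Pkp2 and 1 of Esrp2. The other Epcam probe set, above background in MEF (12.43), differed from MEF by a log2 of 0.64 in CL11, against 9.29 for the brightest. In CL11, 1 probe set of Grhl2 differed by 0.10, against 3.17, and 1 of Crb3 by 0.42, against 1.56. The other Krt8 probe sets differed by more than the brightest, by 5.83 and 5.30 in CL11 against 4.27. For Krt8, both other probe sets ordered the lines as the brightest one did, with IP14D-1 highest and IP14D-101 lowest. The order of lines was not kept by all probe sets of other members. For Dsg2, 1 other probe set was lower in IP14D-101 (11.58) than in CL11 (11.93), while the rest had IP14D-101 above CL11. For Grhl2, 1 other probe set was higher in IP14D-101 (11.30) than in IP14D-1 (11.22), while the rest had IP14D-101 below IP14D-1.

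Of 16 members with CAGGTG before their start, 6 are shown to let its place be seen; they were picked after the matches were known, with Rab25, Cldn4, Krt8 and Krt18 taken as genes that differed among the lines, and they do not stand for the members without it. They are the 250 bases before each RefSeq start in GRCm38.p6, 5' to 3' on the gene's strand. Capitals mark CAGGTG on either strand, the E-box letters that the repressors Snai1, Snai2, Zeb1 and Zeb2 are known to bind, and AACNGGTT on either strand, letters of a Grainyhead-like site. The windows are Epcam at chr17:87635729-87635978, plus strand; Ap1m2 at chr9:21312334-21312583, minus strand; Rab25 at chr3:88548280-88548529, minus strand; Cldn4 at chr5:134946935-134947184, minus strand; Krt8 at chr15:102004343-102004592, minus strand; and Krt18 at chr15:102027966-102028215, plus strand.
Epcam: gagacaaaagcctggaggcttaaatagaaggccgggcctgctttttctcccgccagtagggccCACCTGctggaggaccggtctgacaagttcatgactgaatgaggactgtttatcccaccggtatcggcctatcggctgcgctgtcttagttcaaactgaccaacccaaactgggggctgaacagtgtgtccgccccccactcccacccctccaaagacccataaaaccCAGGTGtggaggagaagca
Ap1m2: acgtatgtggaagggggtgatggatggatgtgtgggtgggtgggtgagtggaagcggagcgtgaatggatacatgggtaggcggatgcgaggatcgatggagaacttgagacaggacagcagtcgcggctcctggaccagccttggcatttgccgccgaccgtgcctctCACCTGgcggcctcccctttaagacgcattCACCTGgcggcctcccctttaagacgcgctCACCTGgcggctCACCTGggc
Rab25: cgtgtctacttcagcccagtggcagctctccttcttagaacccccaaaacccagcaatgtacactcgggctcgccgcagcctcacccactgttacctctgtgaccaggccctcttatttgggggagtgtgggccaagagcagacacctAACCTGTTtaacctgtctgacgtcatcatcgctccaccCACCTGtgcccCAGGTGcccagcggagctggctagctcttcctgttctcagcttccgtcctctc
Cldn4: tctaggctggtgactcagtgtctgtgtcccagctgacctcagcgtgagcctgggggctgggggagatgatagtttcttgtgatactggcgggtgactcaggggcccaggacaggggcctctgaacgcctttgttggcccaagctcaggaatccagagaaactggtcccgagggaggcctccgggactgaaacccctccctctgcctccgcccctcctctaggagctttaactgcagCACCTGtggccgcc
Krt8: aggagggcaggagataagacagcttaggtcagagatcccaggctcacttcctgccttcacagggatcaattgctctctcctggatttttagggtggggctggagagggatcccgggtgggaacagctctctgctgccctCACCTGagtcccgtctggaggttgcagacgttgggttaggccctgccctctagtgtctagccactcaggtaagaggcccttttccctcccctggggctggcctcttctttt
Krt18: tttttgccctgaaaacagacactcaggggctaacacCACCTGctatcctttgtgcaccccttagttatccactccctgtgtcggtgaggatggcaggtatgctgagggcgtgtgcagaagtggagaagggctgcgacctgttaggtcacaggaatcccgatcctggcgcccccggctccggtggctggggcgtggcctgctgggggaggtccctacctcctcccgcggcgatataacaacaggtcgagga

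Ap1m2 held 4 CAGGTG matches within the 81 bases before its start, beginning 81, 51, 21 and 9 bases before it. Rab25 held 2, at 64 and 53 bases, and the AACNGGTT letters at 102 bases, and Epcam held 2, at 187 and 19 bases. Cldn4, Krt8 and Krt18 held 1 each, at 14, 111 and 214 bases. Of the 35 members, 23 had an entry in the RefSeq promoter table, with 28 windows because 5 genes had several. CAGGTG was present for 16 of the 23 genes, in 64.3% of their windows, beside 17.2% of all 32851 windows in the table. The 7 without it were Cgn, Cldn3, Dsp, Jup, Marveld2, Spint1 and Tjp1. AACNGGTT was present for Cgn and Rab25, in 7.14% of member windows and 1.79% of all windows. Member windows were also richer in G and C, with a median of 62.0% against 52.4%, and 75% of them held the GC box GGGCGG, against 32.7% of all windows. TATAAA, the letters of a TATA box, was found for Marveld2, in 7.14% of member windows and 12.4% of all windows. These are matches of letters in a fixed window, not sites of binding.

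Differences from MEF overlapped between members with and without CAGGTG. In IP20D-3 their median log2 difference was 4.58, with a range of 1.01 to 9.84, and the 7 members without it had a median of 4.06 and a range of -0.17 to 4.80. The medians with and without CAGGTG were 4.41 and 4.43 in IP14D-101, 4.92 and 4.55 in IP14D-1, and 4.38 and 3.54 in CL11.

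To ask whether the junction programme was the same in every pluripotent line, the iPS lines were compared with CL11 and with one another. By one F test over the 4 lines, 18 of 35 members differed, beside 38.5% of all genes (limma, adjusted p under 0.05). CL11 had the lowest mean of the 4 lines for 20 members, IP14D-101 for 9, and IP20D-3 and IP14D-1 for 3 each, and IP20D-3 had the highest for 15. This order was counted for the members alone and in the main scaling only, so no share over all genes stands beside it. Against CL11, 13 members were higher and 1 lower in IP20D-3, beside 10.6% and 11.3% of all genes. In IP14D-101, 7 were higher and 4 lower than in CL11, beside 6.05% and 5.45%, and in IP14D-1, 13 were higher and 1 lower, beside 11.7% and 12.6%. These 3 comparisons share the CL11 arrays. The median member differed from CL11 by a log2 of 0.42 in IP20D-3, 0.26 in IP14D-101 and 0.47 in IP14D-1, against 0.02, 0.00 and 0.03 over all genes.

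Among the iPS lines, IP20D-3 had 10 members higher and 2 lower than IP14D-101, beside 11% and 12.5% of all genes, and 1 higher and 3 lower than IP14D-1, beside 4.87% and 4.32%. IP14D-101 had 1 member higher and 9 lower than IP14D-1, beside 14.9% and 13.1%. The split rested in part on the scaling: when arrays were set to equal medians, the counts were 6 higher and 5 lower for IP20D-3 against IP14D-101, 5 and 5 for IP14D-101 against IP14D-1, and 8 and 2 for IP14D-101 against CL11. Without any scaling, they were 7 and 2, 1 and 17, and 2 and 4. The all-gene median moved too. With equal medians it was -0.23, 0.32 and 0.12 in these comparisons, and without scaling -0.05, -0.51 and -0.15. For IP20D-3 against IP14D-1 the counts were 2 higher and 2 lower with equal medians and 0 and 11 without scaling (all-gene medians 0.09 and -0.56). Against CL11, median scaling gave 10 higher and 2 lower in both IP20D-3 and IP14D-1, and without scaling the counts were 8 and 2 in IP20D-3 and 20 and 0 in IP14D-1. In IP20D-3 and IP14D-1 the all-gene medians against CL11 were -0.11 and -0.21 with equal medians, and -0.20 and 0.35 without scaling. Of 65 calls between lines, 41 held when each array was left out in turn, against 123 of 128 calls between a line and MEF.

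**Figure D3:**
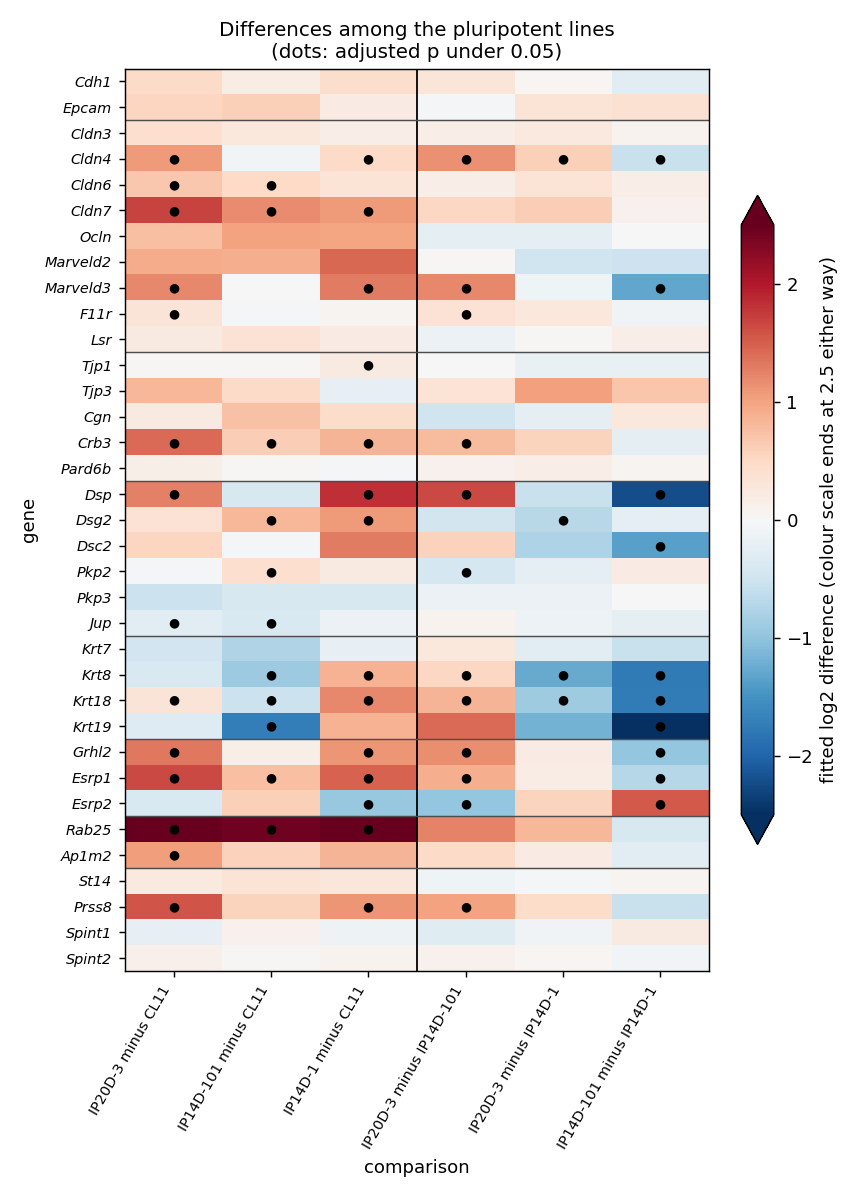
Fitted log2 differences of the 35 members between lines, with the 3 comparisons against CL11 left of the vertical line and the 3 between iPS lines right of it; dots mark an adjusted p under 0.05. The rows of Cldn7, Crb3, Esrp1 and Rab25 are red with dots in all 3 comparisons against CL11, and against CL11 the rows of Krt8 and Krt18 are red in IP14D-1 and blue in IP14D-101.

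Rab25 had the largest difference between line means. Its log2 signal was 13.70, 13.39 and 13.64 in IP20D-3, 12.11, 12.18 and 12.72 in IP14D-101 and 12.46, 12.81 and 12.96 in IP14D-1, against 8.45, 11.29 and 9.99 in CL11. The 9 iPS arrays were above background and did not overlap CL11, where 2 of 3 arrays were below it and the arrays differed widely. Rab25 was at least 5.48-fold higher than CL11 in IP20D-3, 2.32-fold in IP14D-101 and 3.07-fold in IP14D-1 (limma adjusted p = 2.39e-05, 0.00284 and 0.000309). Among the iPS lines no Rab25 difference was called.

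Krt8 and Krt18 were highest in IP14D-1 and lowest in IP14D-101. Krt8 had a log2 signal of 14.99, 15.13 and 15.20 in IP20D-3, 14.53, 14.43 and 14.80 in IP14D-101 and 16.38, 16.33 and 16.37 in IP14D-1, against 15.50, 15.44 and 15.52 in CL11, and Krt18 had 15.58, 15.51 and 15.70 in IP20D-3, 14.74, 14.68 and 14.81 in IP14D-101 and 16.51, 16.54 and 16.41 in IP14D-1, against 15.32, 15.25 and 15.26 in CL11. For both genes the 3 arrays of IP14D-1 were above, and the 3 of IP14D-101 below, all arrays of the other 2 lines. IP14D-101 was lower than IP14D-1 by 3.42-fold for Krt8 (log2 difference -1.77, standard error 0.14, limma adjusted p = 4.69e-08) and by 3.34-fold for Krt18 (-1.74, 0.10, 7.13e-10). Against CL11, Krt8 was 1.87-fold lower in IP14D-101 and 1.83-fold higher in IP14D-1, and Krt18 was 1.45-fold lower and 2.31-fold higher (limma adjusted p of 0.000992 or less). In IP20D-3, Krt18 was called higher than CL11 (0.32, adjusted p = 0.0207), while the Krt8 value was -0.38 (adjusted p = 0.0535). That Krt18 call was lost with equal medians (0.19, adjusted p = 0.281), without scaling (0.10, 0.723), and without CL11 replicate 2 or 3 or IP20D-3 replicate 3 (adjusted p = 0.0687, 0.0649 and 0.0954). The genes lie 23873 bases apart with 0 coding genes between them.

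Krt19 ran the same way with more spread. Its log2 signal was 11.79, 12.13 and 11.99 in IP20D-3, 11.19, 8.60 and 11.89 in IP14D-101 and 13.01, 13.26 and 13.17 in IP14D-1, against 12.34, 12.31 and 12.19 in CL11. The 3 arrays of IP14D-1 were highest, and IP14D-101 replicate 2 was far below every other array. Krt19 was lower in IP14D-101 than in IP14D-1 by at least 3.42-fold (limma adjusted p = 0.00107), with a fitted log2 difference of -2.58 that became -1.61 without IP14D-101 replicate 2 (adjusted p = 0.000163). Its call against CL11 (at least 1.88-fold lower, adjusted p = 0.0413) was lost without that array (log2 difference -0.74, adjusted p = 0.0763) or without any 1 of the CL11 arrays (adjusted p of 0.0913 to 0.107). For Krt7 no difference between lines was called.

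Dsp, which ties keratins to the desmosome, had a log2 signal of 13.66, 14.36 and 14.25 in IP20D-3, 12.69, 12.36 and 12.27 in IP14D-101 and 14.70, 14.73 and 14.54 in IP14D-1, against 13.20, 12.78 and 12.53 in CL11. IP14D-1 and IP20D-3 were above IP14D-101 and CL11 on all arrays. IP14D-101 was 4.64-fold lower than IP14D-1 and IP20D-3 3.14-fold higher than IP14D-101 (limma adjusted p = 1.96e-06 and 5.39e-05). Against CL11, Dsp was 2.39-fold higher in IP20D-3 and 3.53-fold in IP14D-1 (adjusted p = 0.000732 and 1.89e-05). Dsg2 had 15.09, 15.01 and 15.18 in IP20D-3, 15.37, 15.54 and 15.72 in IP14D-101 and 15.76, 15.82 and 15.79 in IP14D-1, against 14.80, 14.59 and 14.77 in CL11, with every array of the iPS lines above CL11. It was 1.77-fold higher than CL11 in IP14D-101 and 2.09-fold in IP14D-1 (limma adjusted p = 0.00419 and 0.000183), and the IP20D-3 value of 0.37 was not called; without scaling the IP14D-101 call was lost (0.67, adjusted p = 0.0519). The lower call of Dsg2 in IP20D-3 against IP14D-1 (-0.70, adjusted p = 0.0167) was lost without any 1 of IP14D-1 replicates 1 to 3 or IP20D-3 replicates 1 and 2 (adjusted p of 0.0504 to 0.0616). For Dsc2, the lower call in IP14D-101 against IP14D-1 (-1.36, adjusted p = 0.0425) was lost without any 1 of the 6 arrays (0.0534 to 0.136).

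Pkp2 and Jup had small differences. Pkp2 had 14.96, 15.14 and 15.10 in IP20D-3, 15.38, 15.55 and 15.60 in IP14D-101 and 15.02, 15.49 and 15.41 in IP14D-1, against 15.04, 15.08 and 15.14 in CL11, and IP14D-101 and IP14D-1 overlapped. It was 1.34-fold higher in IP14D-101 than in CL11 and 1.36-fold lower in IP20D-3 than in IP14D-101 (limma adjusted p = 0.0127 and 0.00425), and the mean of all its probe sets gave 0.033 in place of -0.45 and lost the call against CL11 (0.44, adjusted p = 0.309). Jup had 15.48, 15.35 and 15.35 in IP20D-3, 15.39, 15.24 and 15.28 in IP14D-101 and 15.57, 15.63 and 15.36 in IP14D-1, against 15.59, 15.52 and 15.92 in CL11. It was called lower than CL11 in IP20D-3 (-0.29, adjusted p = 0.0479) and in IP14D-101 (-0.37, 0.0195). Without CL11 replicate 3, the highest array, these values were -0.16 (adjusted p = 0.282) and -0.25 (adjusted p = 0.124). The IP20D-3 call was also lost without CL11 replicate 1 or any 1 of the IP20D-3 arrays (0.0522 to 0.129), and the IP14D-101 call without IP14D-101 replicate 2 (0.0628).

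Cldn7, Cldn4 and Cldn6 had their highest mean in IP20D-3. Cldn7 had a log2 signal of 16.13, 15.91 and 16.10 in IP20D-3, 15.58, 15.36 and 15.67 in IP14D-101 and 15.40, 15.49 and 15.38 in IP14D-1, against 14.36, 14.25 and 14.45 in CL11. Every iPS array was above every CL11 array, by 3.24-fold on average in IP20D-3, 2.27-fold in IP14D-101 and 2.1-fold in IP14D-1 (limma adjusted p = 0.000148, 0.00713 and 0.00646). Cldn4 had 16.51, 16.23 and 16.51 in IP20D-3, 15.23, 15.16 and 15.44 in IP14D-101 and 16.01, 15.85 and 15.61 in IP14D-1, against 15.32, 15.35 and 15.39 in CL11. IP20D-3 was above all other arrays, 2.2-fold higher than IP14D-101 and 2.09-fold higher than CL11 (limma adjusted p = 3.49e-05 and 6.63e-05), while IP14D-101 and CL11 overlapped. The smaller Cldn4 calls were lost when arrays were left out: IP20D-3 against IP14D-1 (0.59) without any 1 of 4 arrays (IP14D-1 replicates 2 and 3, IP20D-3 replicates 1 and 3, adjusted p of 0.0656 to 0.115), IP14D-101 against IP14D-1 (-0.55) without IP14D-1 replicate 1 (-0.46, adjusted p = 0.0704), and IP14D-1 against CL11 (0.48) without any 1 of 5 arrays, all but IP14D-1 replicate 3 (0.0698 to 0.152). Cldn6 had 15.64, 15.66 and 15.64 in IP20D-3, 15.43, 15.40 and 15.59 in IP14D-101 and 15.37, 15.34 and 15.23 in IP14D-1, against 15.00, 14.87 and 15.07 in CL11. It was 1.59-fold higher than CL11 in IP20D-3 (adjusted p = 0.000617) and 1.41-fold in IP14D-101 (adjusted p = 0.0129), the second call being lost without CL11 replicate 2 (0.0702) or IP14D-101 replicate 3 (0.0529), and both without scaling (0.45 and 0.34, adjusted p = 0.0788 and 0.281).

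Of the other tight junction genes, Crb3 had a log2 signal of 15.06, 14.78 and 14.92 in IP20D-3, 14.12, 14.08 and 14.18 in IP14D-101 and 14.28, 14.35 and 14.45 in IP14D-1, against 13.57, 13.47 and 13.48 in CL11, with every iPS array above CL11. It was 2.66-fold higher than CL11 in IP20D-3, 1.54-fold in IP14D-101 and 1.81-fold in IP14D-1 (limma adjusted p = 1.04e-05, 0.0263 and 0.00133), and 1.73-fold higher in IP20D-3 than in IP14D-101 (adjusted p = 0.00248). The IP14D-101 call was lost without any 1 of the CL11 arrays or of IP14D-101 replicates 1 and 3 (0.0544 to 0.0834). It was also lost without scaling (0.47, limma adjusted p = 0.23), by the mean of probe sets (0.35, 0.283) and without a trend (0.0718). Marveld3 had 12.54, 12.32 and 12.72 in IP20D-3, 11.42, 10.87 and 11.70 in IP14D-101 and 12.49, 12.98 and 12.41 in IP14D-1, against 11.16, 11.61 and 11.22 in CL11, so that IP20D-3 and IP14D-1 were above IP14D-101 and CL11. Its calls, 2.29-fold and 2.46-fold higher than CL11 in IP20D-3 and IP14D-1, 2.29-fold higher in IP20D-3 than in IP14D-101 and 2.46-fold lower in IP14D-101 than in IP14D-1, had adjusted p of 0.00932 to 0.0199. Each was lost without at least 1 array, at 0.0548 to 0.0809; for both IP14D-1 comparisons that array was IP14D-1 replicate 2, and for the IP20D-3 comparisons IP20D-3 replicates 1 and 3, CL11 replicates 1 and 3 and IP14D-101 replicate 2. By the mean of probe sets, which takes in Marveld3 probe sets with no group above background, all 4 were lost (limma adjusted p of 0.432 to 0.518). F11r had 16.02, 15.97 and 16.20 in IP20D-3, 15.69, 15.74 and 15.70 in IP14D-101 and 15.84, 15.84 and 15.72 in IP14D-1, against 15.83, 15.60 and 15.78 in CL11, and was 1.26-fold and 1.28-fold higher in IP20D-3 than in CL11 and IP14D-101 (adjusted p = 0.0132 and 0.0071), the first being lost without CL11 replicate 2 (0.0821) or IP20D-3 replicate 3 (0.0764). Both F11r calls were lost in 3 other settings: the differences from CL11 and IP14D-101 were 0.20 and 0.11 with equal medians, 0.11 and 0.29 without scaling, and 0.041 and 0.34 by the mean of probe sets (adjusted p of 0.117 or more). The other F11r probe set had no group above background. Tjp1 was called higher in IP14D-1 than in CL11 (0.22, limma adjusted p = 0.045). Median scaling turned this value to -0.028, where the all-gene median was -0.21. The call was lost without any 1 of 5 arrays, all but CL11 replicate 1 (0.0663 to 0.132).

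The splicing regulators ran in different orders over the lines. Esrp1 had a log2 signal of 15.82, 15.93 and 15.99 in IP20D-3, 14.94, 15.14 and 14.94 in IP14D-101 and 15.79, 15.58 and 15.81 in IP14D-1, against 14.26, 14.08 and 14.44 in CL11. Its arrays did not overlap between CL11, the lowest, IP14D-101 and the other 2 iPS lines, 3.14-fold above CL11 in IP20D-3 and 2.76-fold in IP14D-1 (limma adjusted p = 3.92e-05 and 0.000128). The IP14D-101 difference from CL11 (0.75, adjusted p = 0.0428) was lost without any 1 of the 6 arrays (0.0609 to 0.154), and that from IP14D-1 (-0.72, 0.0258) without any 1 of 4, replicates 1 and 3 of both lines (0.0718 to 0.0806). The first was also lost without scaling (0.60, limma adjusted p = 0.219), and the second with equal medians (-0.35, 0.243). IP20D-3 was 1.87-fold higher than IP14D-101 (adjusted p = 0.00757). Esrp2 had 12.14, 12.40 and 12.46 in IP20D-3, 13.13, 13.59 and 13.20 in IP14D-101 and 12.44, 11.20 and 11.67 in IP14D-1, against 12.56, 13.04 and 12.54 in CL11. Here IP14D-101 was highest, 2.9-fold above IP14D-1 (log2 difference 1.54, standard error 0.29, limma adjusted p = 0.000553). Esrp2 was lower in IP20D-3 than in IP14D-101 (-0.97, 0.0193) and lower in IP14D-1 than in CL11 (-0.94, 0.0229), calls lost without IP14D-101 replicate 2 (0.0829) or IP20D-3 replicate 1 (0.0759) and without CL11 replicate 2 (0.11) or IP14D-1 replicate 2 (0.138) or 3 (0.0652), and both lost by the mean of probe sets (0.134 and 0.14). Another probe set of Esrp2 did not share its sign against MEF in IP20D-3 and IP14D-1.

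Grhl2 was higher in IP20D-3 and IP14D-1 than in the other lines. It had 15.67, 15.71 and 15.57 in IP20D-3, 14.48, 14.46 and 14.51 in IP14D-101 and 15.47, 15.49 and 15.40 in IP14D-1, against 14.29, 14.48 and 14.25 in CL11. IP20D-3 and IP14D-1 were above every array of IP14D-101 and CL11, which overlapped. The fold over CL11 was 2.48 in IP20D-3 and 2.16 in IP14D-1, IP20D-3 was 2.25-fold higher than IP14D-101, and IP14D-101 was 1.96-fold lower than IP14D-1 (limma adjusted p of 0.000742 or less). Prss8, the protease prostasin, had 14.35, 14.52 and 14.37 in IP20D-3, 13.59, 13.07 and 13.53 in IP14D-101 and 13.97, 14.04 and 13.85 in IP14D-1, against 12.89, 12.83 and 12.80 in CL11, with every iPS array above CL11. It was 2.98-fold higher than CL11 in IP20D-3 (adjusted p = 0.00354); its smaller calls, IP14D-1 against CL11 (1.11, 0.0297) and IP20D-3 against IP14D-101 (1.02, 0.0483), were each lost without any 1 of their 6 arrays (0.0575 to 0.0909 and 0.0685 to 0.155). Ap1m2 was called higher in IP20D-3 than in CL11 (1.04, adjusted p = 0.023) and lost this call without any 1 of 5 arrays, all but CL11 replicate 3 (0.0522 to 0.0718). No difference between lines was called on the 15 arrays for St14, Spint1, Spint2, Cldn3, Ocln, Marveld2, Lsr, Tjp3, Cgn, Pard6b and Pkp3.

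**Figure D4:**
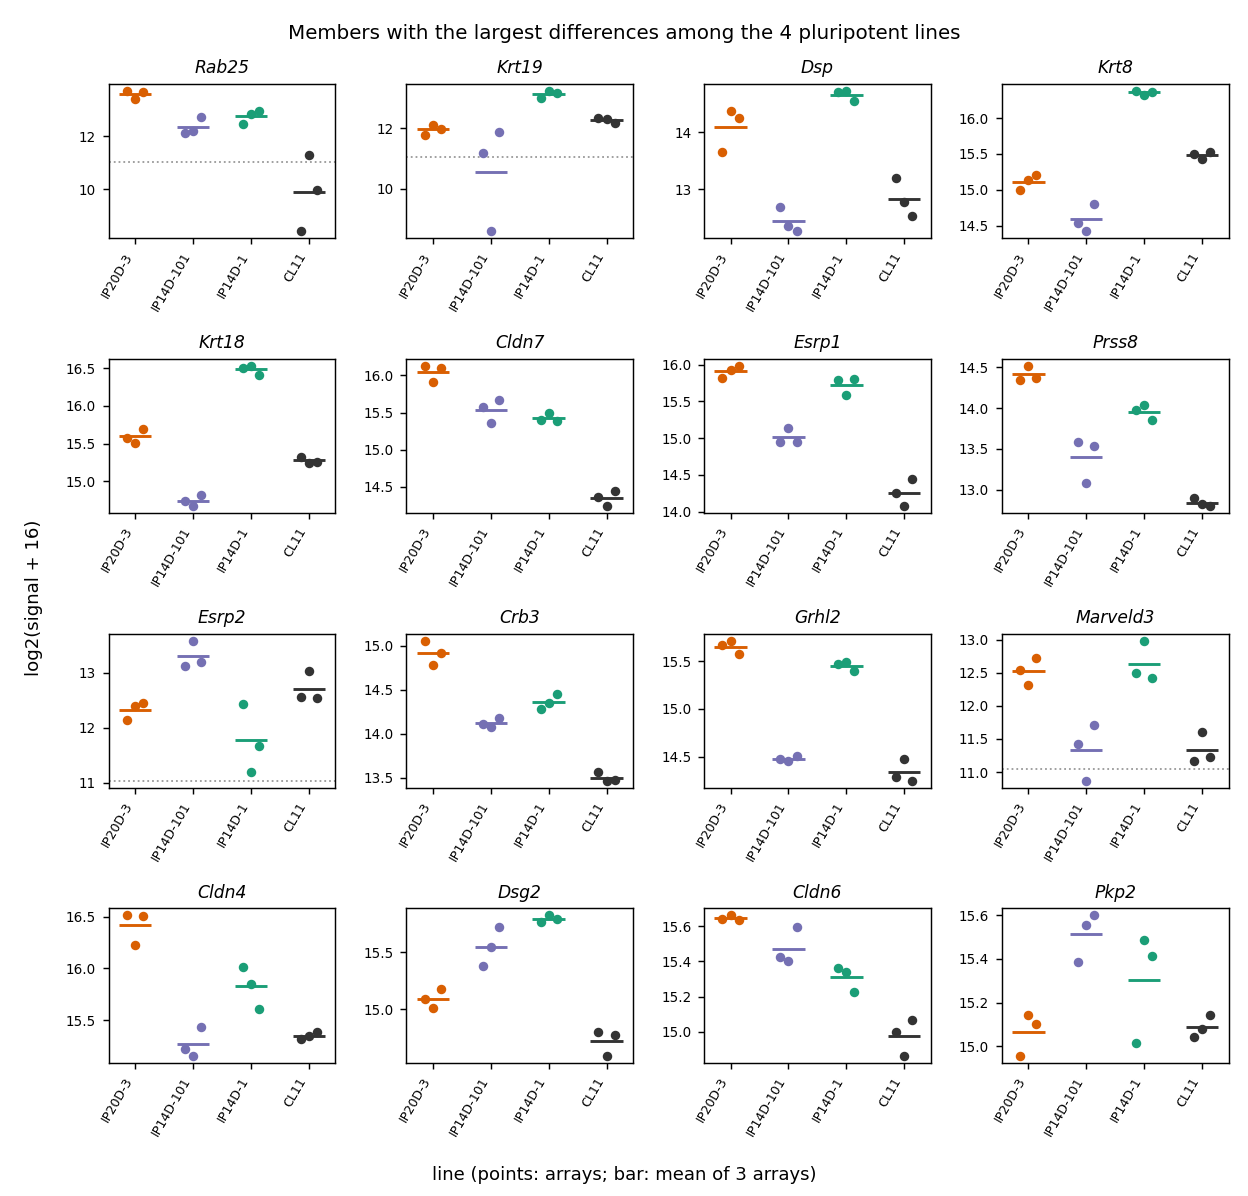
Log2(signal + 16) on each array of IP20D-3, IP14D-101, IP14D-1 and CL11, as points with the mean of 3 arrays as a bar. Shown are the 16 members with the largest differences between line means among the 18 called by the F test. Members not called by it are left out, also where their line means differed more. Each panel has its own y axis, and the dotted line is background at 11.04. Krt8, Krt18 and Krt19 are highest in IP14D-1 and lowest in IP14D-101, Cldn7, Crb3 and Prss8 are highest in IP20D-3 and lowest in CL11, and Esrp2 is highest in IP14D-101.

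Because the spread of members at background in MEF enters the pooled error, the lines were also fitted without the MEF arrays, an alternative chosen after seeing the data. On the 12 arrays of the lines, 27 of 35 members differed by the F test, beside 39.3% of all genes. Cdh1 and Epcam were then called (limma adjusted p = 0.00173 and 2.24e-05), as were Ap1m2, Ocln, Tjp3, Cgn, Marveld2, Dsc2 and Pkp3. Cdh1 was higher than CL11 by a log2 of 0.48 in IP20D-3 and 0.44 in IP14D-1 (adjusted p = 0.0014 and 0.00273 on 12 arrays, 0.0796 and 0.107 on 15). Epcam was higher than CL11 by 0.54 in IP20D-3 and 0.59 in IP14D-101 (6.22e-05 and 6.6e-05 on 12 arrays, 0.0851 and 0.0924 on 15). The calls against CL11 numbered 21 in IP20D-3, 16 in IP14D-101 and 21 in IP14D-1 in this fit, beside 22.7%, 12.2% and 25% of all genes. Some calls lost above without single arrays were kept here. Limma adjusted p was 2.05e-05 for Prss8 in IP14D-1 against CL11 and 5.23e-05 for Prss8 in IP20D-3 against IP14D-101. It was 1.65e-07 for Ap1m2 in IP20D-3 and 9.69e-05 for Esrp1 in IP14D-101, both against CL11. The calls of Jup in IP20D-3 and Krt19 in IP14D-101 against CL11 were lost (0.0571 and 0.0502). Arrays were not left out in turn in this fit.

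Other genes of the junctions, from lists drawn from general knowledge, were called in both directions. Of 30 other tight junction and polarity genes, 6 were higher and 6 lower than MEF in IP20D-3, 8 and 7 in IP14D-101, 7 and 6 in IP14D-1, and 7 and 8 in CL11, with a median between -0.33 and 0.23. Of all genes, 30.4%, 30.4%, 29.9% and 30.3% were higher in the same order of lines. The lower shares were 23.7%, 24.7%, 22.9% and 23.8%, and these shares also stand beside the lists that follow. Among the largest calls, Cldn9 was at least 1.67-fold higher than MEF in IP20D-3, 2.13-fold in IP14D-101 and 2.31-fold in CL11, with its mean in IP14D-1 below background. Jam2 differed from MEF by a log2 of 3.70 in IP20D-3, 4.21 in IP14D-101, 3.78 in IP14D-1 and 4.74 in CL11, and Llgl2 by 2.54 in IP20D-3, 3.37 in IP14D-101, 2.58 in IP14D-1 and 3.01 in CL11. Cldn9 encodes a claudin, Jam2 a junctional adhesion molecule and Llgl2 a polarity protein of the Lgl family. Prkcz, of the same list, had a mean log2 signal of 12.95 to 14.24 in the lines and 10.25, below background, in MEF. Genes named here from this list ran higher than MEF, and its lower calls are given as counts only. Jam2 was also lower than CL11, with log2 differences of -1.03, -0.53 and -0.96 in IP20D-3, IP14D-101 and IP14D-1 (limma adjusted p of 0.00183 or less). Llgl2 was likewise lower than CL11 in IP20D-3 and IP14D-1 (-0.47 and -0.44, limma adjusted p = 0.00678 and 0.011).

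Of 11 adherens junction genes, 2 were higher and 5 lower than MEF in IP20D-3, 3 and 6 in IP14D-101, 3 and 6 in IP14D-1, and 2 and 6 in CL11. Ctnnb1, the beta-catenin that binds E-cadherin's tail, was bright in all groups, with differences from MEF of 0.10 in IP20D-3, 0.20 in IP14D-101, 0.14 in IP14D-1 and -0.06 in CL11, called in IP14D-101 (limma adjusted p = 0.0305). Cdh2, the N-cadherin of mesenchymal cells, differed by -3.29 in IP20D-3, -4.29 in IP14D-101, -2.35 in IP14D-1 and -4.22 in CL11 from MEF (standard error 0.17). It was also higher than CL11 by 0.94 in IP20D-3 and 1.87 in IP14D-1 (limma adjusted p = 0.000436 and 2.56e-07). Of 8 other desmosome genes, 5 were higher and 0 lower in IP20D-3, 5 and 1 in IP14D-101, 4 and 0 in IP14D-1, and 5 and 1 in CL11. Perp, a desmosome-associated membrane protein, exceeded MEF by at least 13.5-fold in IP20D-3, 11.9-fold in IP14D-101, 31.3-fold in IP14D-1 and 19.4-fold in CL11. Among the lines Perp was lower in IP14D-101 than in IP14D-1 (log2 difference -1.39) and lower in IP20D-3 than in IP14D-1 (-1.21, limma adjusted p = 1.91e-07 and 3.22e-06). Of 14 other keratins, 3, 4, 3 and 2 were higher and 1, 1, 2 and 1 lower than MEF in the same order of lines.

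Of 11 other epithelial regulators, 7 were higher than MEF in IP20D-3 and in IP14D-101, and 8 in IP14D-1 and in CL11, and 0 were lower. Klf5, a Kruppel-like factor of epithelia and of pluripotent cells, differed by 4.47 in IP20D-3, 4.15 in IP14D-101, 4.41 in IP14D-1 and 4.39 in CL11 (standard error 0.08), and Grhl3, a relative of Grhl2, was at least 3.83-fold higher in IP20D-3, 6.19-fold in IP14D-101, 2.91-fold in IP14D-1 and 4.68-fold in CL11. All 9 mesenchymal regulators and markers were lower than MEF in every line. Zeb1, a repressor of E-cadherin and of other epithelial genes, differed from MEF by -3.50 in IP20D-3, -3.71 in IP14D-101, -3.44 in IP14D-1 and -2.66 in CL11 (standard error 0.17), and Zeb2 by -1.54 in IP20D-3, -1.93 in IP14D-101, -2.13 in IP14D-1 and -1.98 in CL11. The related repressor Snai1 differed by -3.66 in IP20D-3, -3.67 in IP14D-101, -2.94 in IP14D-1 and -3.72 in CL11, and for Snai2 MEF exceeded the lines, which were lower by at least 91.3-fold in IP20D-3, 91.3-fold in IP14D-101, 88.5-fold in IP14D-1 and 89.5-fold in CL11. Vim, the vimentin filament of mesenchymal cells, differed by -3.44 in IP20D-3, -2.66 in IP14D-101, -2.83 in IP14D-1 and -3.24 in CL11 and stayed well above background.

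Among the lines, CL11 had the highest Zeb1: the log2 difference from CL11 was -0.85 in IP20D-3, -1.06 in IP14D-101 and -0.78 in IP14D-1 (limma adjusted p = 0.00118, 0.000369 and 0.00209). Snai1 was higher in IP14D-1 than in CL11 (0.78, adjusted p = 0.0408), and the means of Snai2 lay below background in all 4 lines. Zeb2 was not called in any comparison between lines.

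Markers of other cell types also differed between the lines. Summed signal over 12 primitive endoderm markers was 49346 to 51325 in IP20D-3, 313988 to 363944 in IP14D-101 and 63360 to 66877 in IP14D-1, against 456946 to 464360 in CL11, and 746677 to 805291 in MEF. Of these 12 markers, 11 were lower in IP20D-3 and in IP14D-1 than in CL11, and 3 in IP14D-101. On each array 5 to 7 of them were above background in IP20D-3, 10 or 11 in IP14D-101, 6 or 7 in IP14D-1, 11 in CL11 and 5 or 6 in MEF. The sum in MEF held Col4a1 at a mean log2 signal of 19.34, against 17.30 in CL11, while Gata4, Sox7, Sox17, Foxa2 and Cubn were below background in MEF. The lines with the lower sums, IP20D-3 and IP14D-1, had the higher Grhl2, Dsp, Esrp1 and Marveld3, members named here because they share that order. Means of Cdh1, Cldn4, Crb3, Rab25, Ap1m2 and Prss8, among others, ran in that order too. Other members ran otherwise. Esrp2 had lower means in these lines than in IP14D-101 and CL11, and the Cldn7 mean was higher in IP14D-101 (15.54) than in IP14D-1 (15.43). Cldn7, and of the members sharing the order Crb3, Rab25 and Esrp1, were called higher than CL11 in IP14D-101 too. Over 8 trophoblast markers the sums were 77288 to 81552 in IP20D-3, 60124 to 72621 in IP14D-101 and 61149 to 66940 in IP14D-1, against 62531 to 78571 in CL11 and 3699 to 6563 in MEF. The largest part of the sum in each line was Tfap2c, with a mean log2 signal of 15.9 in IP20D-3 and 15.3 in CL11. On each array 3 or 4 of these 8 were above background in IP20D-3 and IP14D-101. The number was 5 or 6 in IP14D-1 and CL11, and 0 or 1 in MEF. Their median log2 difference from CL11 was -0.53 in IP20D-3, -0.84 in IP14D-101 and -0.16 in IP14D-1. The fibroblast marker sum was highest among the lines in IP14D-1, the line with the highest Krt8, Krt18 and Krt19. The part of endoderm, trophoblast, fibroblast or feeder cells in the differences between lines was not tested.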

How the data were processed

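RNA of 15 samples was measured on Affymetrix mouse arrays of 45101 probe sets. The deposited intensities are MAS5 signals that, per the submitters' processing notes, came out of Affymetrix Expression Console; versions are not given in the sources used here. Their trimmed means, with 2% cut from each end, ran from 11142 to 20356, a ratio of 1.83, so each array was scaled to a common trimmed mean, and log2(signal + 16) was computed from the deposited intensities. Leaving out 64 control probe sets and those without a single gene, the brightest probe set stood for each of 18193 genes. The test was limma's moderated one (version 3.58.1, under R 4.3.3), with 5 group means, a mean-variance trend and Benjamini-Hochberg adjustment over all genes and an adjusted p under 0.05 as a call. The F test covered the 3 iPS lines against CL11. It was tested on simulated data. Background is the 95th percentile of 39 olfactory receptor genes. Promoters were RefSeq windows of GRCm38.p6. Alternatives were other scalings, pseudocounts, filters and probe set rules, no trend, a replicate block and leaving out each array. The members and gene lists were chosen with earlier results of these data known, and the rule named all 35 members, up to 4 called genes of each other list by size, and Zeb1, Zeb2, Snai1, Snai2, Ctnnb1, Cdh2 and Vim. Replicate numbers did not pair the samples.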

Additional observations from a re-analysis of the deposited data

Results flagged for a closer look

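Krt8 and Krt18 moved in opposite directions against CL11 in different iPS lines, and the difference itself was tested in the same fit. For Krt8, the value in IP14D-101 minus that in IP14D-1 was -1.77 on the log2 scale. For Krt18 it was -1.74. The Krt18 difference of IP20D-3 from IP14D-101 was 0.85. The differences from CL11 share the CL11 arrays, and the differences between iPS lines given here share the IP14D-101 arrays.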

How the results depend on the processing

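Of the 65 member calls between lines, 24 were lost without some array, and of 128 calls against MEF, 5 were. Leaving out arrays one at a time gave 9 to 12 calls for IP20D-3 against CL11, 7 to 9 for IP14D-101 against CL11, 9 to 12 for IP14D-1 against CL11, 9 to 12 for IP20D-3 against IP14D-101, 2 to 4 for IP20D-3 against IP14D-1, 7 to 9 for IP14D-101 against IP14D-1, and 17 to 19 by the F test. Against MEF, 30 to 32 members were higher in IP20D-3, 30 to 31 in IP14D-101, 30 to 32 in IP14D-1 and 30 to 31 in CL11, and 1 to 2 lower in IP14D-101. Without scaling the calls numbered 6 for IP14D-101 against CL11, 11 for IP20D-3 against IP14D-1 and 18 for IP14D-101 against IP14D-1. The all-gene medians without scaling were -0.15, -0.56 and -0.51 in the same order. Without a trend the calls numbered 6 for IP14D-101 against CL11 and 2 for IP20D-3 against IP14D-1, which had 10 with a pseudocount of 1000 and 10 on the 12 arrays of the lines. The mean of probe sets gave 7 for IP20D-3 against IP14D-101, and 29, 28, 30 and 27 members higher than MEF in IP20D-3, IP14D-101, IP14D-1 and CL11. Lower calls against MEF were 0 with equal medians in IP20D-3 and CL11, 1 in IP14D-101 with equal medians or without a trend, and in IP20D-3 2 without scaling and 0 by the mean of probe sets. Tjp1 turned without scaling (-0.24 in IP20D-3, -0.17 in IP14D-101 and -0.051 in CL11 against MEF) and with equal medians (-0.24 for IP20D-3 against IP14D-101, -0.028 for IP14D-1 against CL11). The all-gene medians in these comparisons were -0.52, -0.51 and -0.34 without scaling, and -0.23 and -0.21 with equal medians. Without scaling Pkp2 was -0.53 in IP14D-101 against MEF (all-gene median -0.51) and Spint2 -0.50 in IP20D-3 against IP14D-1 (all-gene median -0.56). With equal medians Jup was 0.088 in IP14D-101 against MEF (all-gene median 0.39). By the mean of probe sets Pkp2 was 0.033 for IP20D-3 against IP14D-101. The cause was not tested. With the replicate number as a block, 11 members were called between IP20D-3 and IP14D-101, against 12 without it, and Tjp1 in IP14D-1 against CL11 was lost (adjusted p = 0.052). The numbers do not pair the samples: correlations of same-numbered deviations were -0.03 to 0.03, 0 of 30 pairs were over 0.1, and 4 of 15 arrays were closest to their own number. Signals near background limit what MEF values can show.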
